A study of Mus musculus with 40 samples.

Results

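Regulatory T cells of different origin were compared at rest by RNA-seq of mouse cells: iTregs, which were made from conventional T cells in culture, and tTregs, which were taken from the spleen. The comparison rests on 3 libraries of resting iTregs and 3 of resting tTregs, 6 of the 24 RNA-seq libraries and of the 40 samples of the series. iTregs came from naive CD4+ T cells without Foxp3 (CD44 low) of mice 6 weeks old, were stimulated for 4 days on plate-bound antibodies to CD3 and CD28 with 2 ng per ml TGF-β and 200 U per ml IL-2, were sorted on a Foxp3 reporter, and were rested for 1 day in IL-2. tTregs were sorted from the spleen of mice 2 to 4 months old as CD4+ cells with the Foxp3-GFP reporter. The sort did not separate tTregs from Tregs that arise outside the thymus, and a rest of the tTregs before sequencing is not given in the sources used here. Several factors therefore cannot be told apart in this comparison. They are origin, age of the donors, stimulation through CD3 and CD28, days in culture, added TGF-β and IL-2, and past division. The sources do not say that the 3 libraries of a group came from separate mice or cultures, so the p-values measure the spread between these libraries only. Resting conventional T cells (Tconvs), activated Tconvs, activated tTregs and restimulated iTregs, 3 libraries each, are given beside the comparison as levels without a test. Tconvs and activated tTregs came from mice 2 to 4 months old. Resting Tconvs thus differ in donor age from the naive cells that gave rise to iTregs. Per the study's methods, restimulated iTregs met plate-bound antibodies to CD3 and CD28 again after the rest. How long the activated and restimulated groups were stimulated before RNA-seq is not given in the sources used here. Nor is what the Tconvs and tTregs were activated with for it.

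Tregs are CD4+ T cells that restrain other T cells, and the transcription factor Foxp3 is their defining factor. Foxp3 works with other factors, among them the Ikaros family members Helios and Eos and the IL-2 signal through STAT5, and Tregs use surface receptors, cytokines, enzymes that turn ATP into adenosine, and binding to dendritic cells. Tregs that mature in the thymus carry a program that is stable, while Tregs induced with TGF-β in culture are known to lose Foxp3 more readily. The question here was which Treg genes iTregs lacked, shared with tTregs or exceeded, over functions other than calcium handling.

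The values are normalized counts: the reads of a gene over the size factor of its library, which corrects for how deeply that library was sequenced. A difference is the log2 of the normalized count plus 1 in iTregs minus that in tTregs, so that a negative value means less in iTregs. It was tested with limma over all 11140 genes that reached 10 normalized counts in 3 of the 6 libraries, and a gene was called at an adjusted p below 0.05 with a log2 difference beyond 0.5 in either direction. A gene was put within 2-fold when it was not called and its whole 95% confidence interval lay between -1 and 1. Genes that were neither are named not settled. A gene present in 1 group alone could pass the filter, and its direction then followed from passing it. The counts and medians of the lists below include such genes.

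Both groups differed over most of the transcriptome. Of the 11140 genes tested, 7076 were called (63.5%), with 3420 lower in iTregs (30.7%) and 3656 higher (32.8%), while 3386 were within 2-fold (30.4%) and 678 were not settled. The median difference over all genes was 0.03. The counts of every list below are to be read against these shares, because a gene picked without regard to function was called more often than not. iTreg libraries held between 10427000 and 14103874 reads on genes and tTreg libraries between 6762831 and 9688361. Their normalized totals also differed, at 10701421 to 10989604 in iTregs and 8635869 to 8788558 in tTregs. When the libraries were scaled to equal totals instead, the median gene moved by -0.32 on the log2 scale and the calls divided into 2681 higher and 4587 lower. The share of calls that were higher in iTregs was then 36.9%, against 51.7% as deposited. Lower calls outnumbered higher ones also with quantile normalization (3799 against 3202), TMM scaling (3574 against 3474) and edgeR (3714 against 3371), so the balance of the directions over all genes depended on the scaling and the tool. No called member of the lists changed sign under this or 3 other scalings.

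The labels were checked on genes of the T cell lineage. *Foxp3* stood at 1178, 1338 and 1324 normalized counts in iTregs, at 7218, 7767 and 7627 in tTregs, and at a mean of 10.4 in resting Tconvs. Since both Treg groups were sorted on a Foxp3 reporter its presence is no finding, and its level was 5.89-fold lower in iTregs (log2 difference -2.56 ± 0.09 SE, limma, adjusted p = 2.32e-07). Of the exonic length of *Foxp3* (chrX:7573644-7595245), 31.5% is shared with other annotated genes. *Cd4*, also used for the sort, was within 2-fold, at 4721 ± 628 and 4542 ± 451 (SD, n = 3). Of the CD3 complex, *Cd3d* and *Cd3g* were within 2-fold, whereas *Cd3e* (-1.25) was lower in iTregs, as was *Cd247* (-1.13), which shares 60.3% of its exonic length with other genes. B cell markers summed to between 1100 and 1274 normalized counts in iTregs and between 225.9 and 251.7 in tTregs. Of the 14 B cell markers with a row, 6 were higher in iTregs and 2 lower. *H2-Ab1*, a chain of the MHC class II of antigen presenting cells, made up most of the sum, at 639 ± 20.2 against 2.05 ± 1.81. Also higher were *H2-Aa* (3.18), *H2-Eb1* (2.17), *Cd74* (3.13), *Fcmr* (2.51) and the B lineage factor *Ebf1*, with 12.7, 22.2 and 33.4 against 0, 6.49 and 6.83 (2.51). The *Ebf1* call was lost without the second or the third iTreg library (2.48 and 2.19), and its difference was 1.53 without the first tTreg library. *Cd79b* (-1.94) and *Cr2* (-2.70) were lower, and *Ms4a1*, *Blk* and *Pax5* were at 0 in every library of both groups. Myeloid and dendritic cell markers summed to between 41.36 and 43.25 in iTregs and between 107.1 and 129.8 in tTregs, with 9 of 17 at 0 in each group. Markers of NK, CD8 and gamma-delta T cells summed to between 131.7 and 161.6 against between 157.2 and 177.8, and those of erythroid cells and platelets to between 30.56 and 34.3 against between 18.22 and 34.47. The part of such cells in the results was not tested, and in bulk RNA fewer cells that express a gene cannot be told from less RNA per cell.

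The Treg genes comprised 115 genes in 3 lists, namely transcription factors, surface proteins and mediators of suppression. Of the 112 that were tested, 59 were lower in iTregs (52.7%), 38 were higher (33.9%), 11 were within 2-fold (9.82%) and 4 were not settled, with a median difference of -0.62. *Il12a*, *Areg* and *Il1rn* did not reach the filter. The 3 lists divided unequally. Of 40 transcription factors, 24 were lower and 11 higher, with a median of -0.82. Of 45 surface proteins, 27 were lower and 11 higher, with a median of -1.05. Of 27 mediators, 8 were lower and 16 higher, with a median of 0.89.

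**Figure D1:**
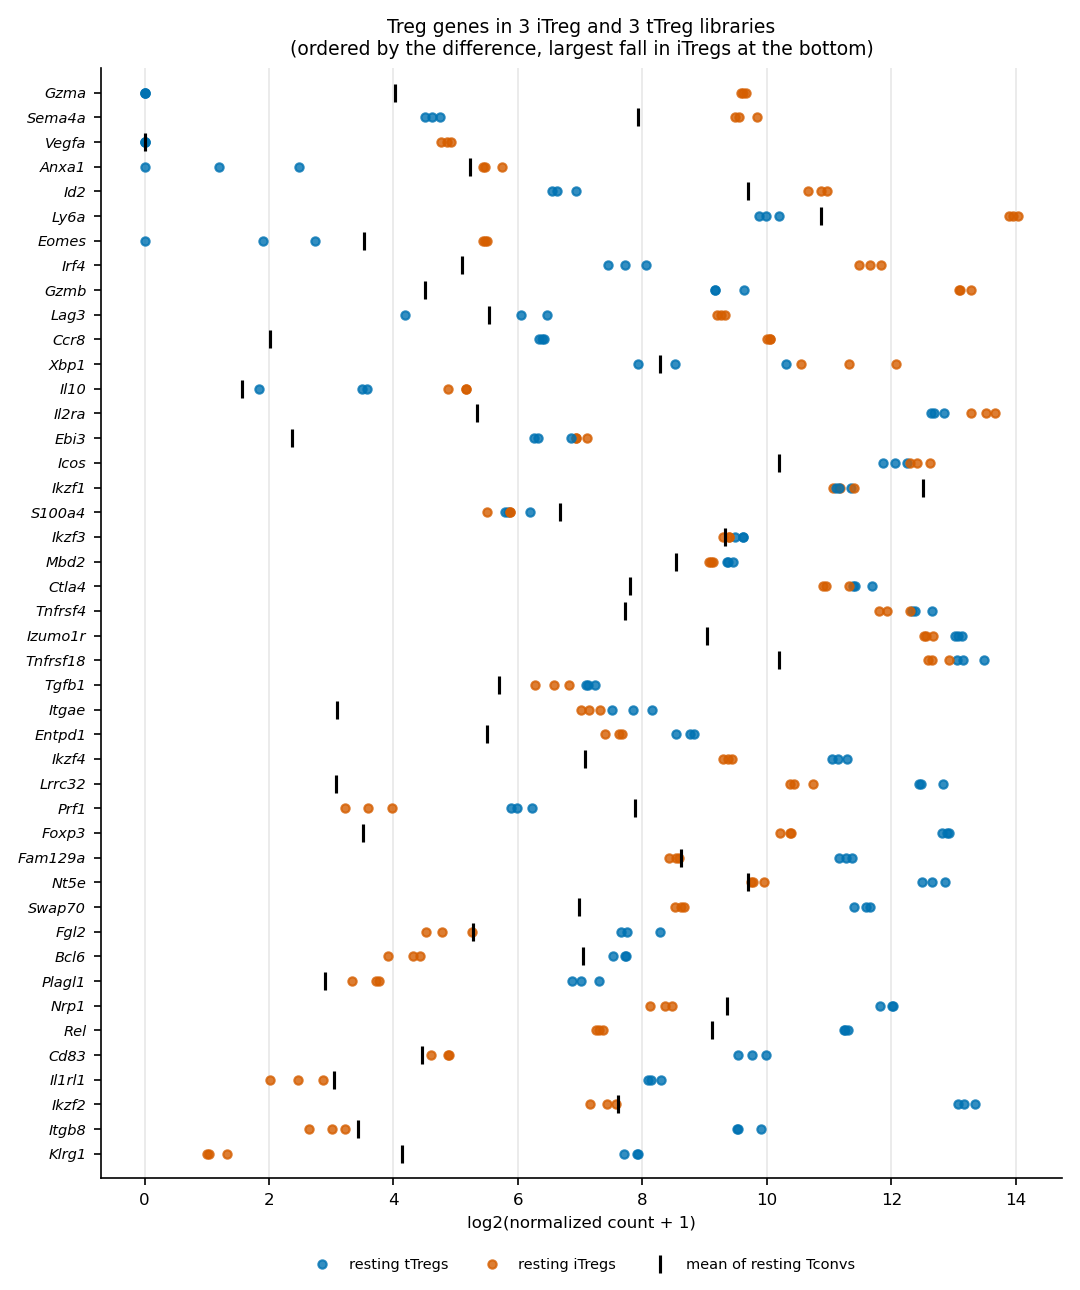
Log2 of the normalized count plus 1 (horizontal axis) of 44 Treg genes in each of 3 resting iTreg libraries (orange) and 3 resting tTreg libraries (blue), with the mean of 3 resting Tconv libraries as a black bar. *Ikzf2*, *Itgb8* and *Nt5e* lay near the Tconv mean in iTregs and far above it in tTregs, *Icos* and *Ikzf1* lay together in both, and *Gzma* was at 0 in each tTreg library.

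The Treg transcription factor that was lowest in iTregs was *Ikzf2*, which encodes Helios, an Ikaros family factor abundant in Tregs of thymic origin. *Ikzf2* (chr1:69531214-69687245) had 171, 141 and 189 normalized counts in iTregs and 10382, 9218 and 8610 in tTregs, a difference of 56.2-fold (log2 -5.81 ± 0.13 SE, limma, adjusted p = 5.24e-08). The iTreg level was no higher than that of resting Tconvs, at 195 ± 5.87 (SD, n = 3). *Rel*, the NF-κB subunit c-Rel that acts in Foxp3 induction in the thymus, had 163, 156 and 151 normalized counts in iTregs and 2512, 2437 and 2415 in tTregs (log2 -3.96 ± 0.09 SE, limma, adjusted p = 5.24e-08). Its iTreg level lay below that of resting Tconvs, 556 ± 64.5. *Plagl1*, a zinc finger factor, was lower by 3.45 on the log2 scale, and *Bcl6*, the factor of follicular T cells, by 3.44. *Ikzf4*, which encodes Eos, a Foxp3 partner, differed by less. It stood at 629, 666 and 690 in iTregs and 2489, 2262 and 2107 in tTregs (log2 -1.78). Both groups were above the resting Tconv mean of 134. Helios was thus near the resting Tconv level in iTregs, and Eos was above it. Activated Tconvs had 521 ± 21 of *Ikzf4*, nearer to iTregs, and 138 ± 15.3 of *Ikzf2*.

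Among the remaining transcription factors that were lower in iTregs were *Rora* (-2.72), *Zeb1* (-1.91), *Ahr* (-1.57), *Prdm1* (-1.35), which encodes Blimp-1 of effector Tregs, *Bach2* (-0.86), *Foxo1* (-0.85) and *Gata3* (-0.63). *Stat5b* and *Stat5a*, which carry the IL-2 signal to the nucleus, were in this set, at 1269 ± 62.4 against 4438 ± 458 and 1158 ± 16.6 against 2884 ± 79 normalized counts. In *Nr4a1*, a factor that T cell receptor signals induce, iTregs had 43.2, 35.3 and 41.7 normalized counts and tTregs 288, 295 and 308 (log2 -2.86). The 3 iTreg libraries lay below the 3 tTreg libraries in each of these genes. Such a lack of overlap, in either direction, was common, being found in 8437 of all 11140 genes tested.

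Of the 32 Treg transcription factors with a RefSeq promoter window (250 bases before to 50 after the start), 1 (3.12%), *Rel*, held either of the motifs TTTCCCGC and TTTGGCGC, which are forms of the site that E2F factors bind. Of the tested genes with a window, 3.66% held one, a share near that of this list. The stretch of *Rel* is shown because a gene with such a site was lower in iTregs, unlike the replication genes described further on. It lies on the minus strand at chr11:23771020-23771099 (RefSeq, GRCm38.p6), with the motif in capitals, 94 bases before the annotated start.
*Rel*: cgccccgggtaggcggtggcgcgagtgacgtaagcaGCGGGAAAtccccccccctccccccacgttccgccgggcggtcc

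Of the Treg transcription factors, 11 were higher in iTregs. *Id2*, an inhibitor of E protein factors, had 2007, 1861 and 1621 normalized counts in iTregs and 122, 97.3 and 92.3 in tTregs, 17.5-fold more (log2 4.13 ± 0.14 SE, limma, adjusted p = 2.1e-07). Resting Tconvs, at 826 ± 23.2, lay above tTregs in *Id2*. *Irf4*, a factor of activated T cells and of effector Tregs, had 2861, 3220 and 3661 against 266, 210 and 173 (log2 3.92 ± 0.17 SE, limma, adjusted p = 5.75e-07), and activated Tconvs stood at 4309 ± 173. *Eomes*, a factor of cytotoxic and memory T cells, had 44.3, 42.4 and 43.2 in iTregs against 2.72, 0 and 5.7 in tTregs. The tTreg level rests on 8 reads in all, and the ratio was 14.88 with a 95% counting interval from 7.35 to 35.15. In *Xbp1*, a factor of the unfolded protein response, the tTreg libraries were uneven at 241, 367 and 1260 beside 2566, 4321 and 1500 in iTregs (log2 2.40 ± 0.60 SE, limma, adjusted p = 0.00711). Without the third tTreg library that difference was 3.10. The same library stood nearer to iTregs in *Hif1a*, the factor of the hypoxia response, at 3635 beside 1115 and 1404 in the other two. The *Hif1a* call (log2 1.34) was lost without the second iTreg or the second tTreg library, at 1.12 and 1.17.

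Among the transcription factors, 4 were within 2-fold. *Ikzf1*, which encodes Ikaros, had 2131, 2308 and 2692 normalized counts in iTregs and 2613, 2212 and 2293 in tTregs, with a log2 difference between -0.27 and 0.27 (95% interval). *Ikzf3*, which encodes Aiolos, stood at 655 ± 26.9 and 760 ± 40.4. The others were *Maf* (0.43, called at 0.51 without the first tTreg library) and *Mbd2* (-0.29), a protein that binds methylated DNA. So among the 4 Ikaros family members listed, Ikaros and Aiolos were shared while Helios and Eos were lower in iTregs. Under scaling to equal totals *Ikzf3* and *Mbd2* passed the call, at -0.53 and -0.61.

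The largest fall among the surface proteins was in *Klrg1*, an inhibitory receptor of effector Tregs, for which 4 reads in all were found in iTregs. *Klrg1* had 1.05, 1.01 and 1.52 normalized counts in iTregs and 241, 240 and 207 in tTregs, a ratio of 187.4 with a counting interval from 72.84 to 690.0. *Itgb8*, the β8 integrin chain with which Tregs release active TGF-β from its latent form, had 5.27, 7.06 and 8.35 in iTregs and 956, 732 and 743 in tTregs (log2 -6.69 ± 0.21 SE, limma, adjusted p = 1.38e-07). In *Il1rl1*, the receptor for IL-33 that marks tissue Tregs, the values were 6.32, 3.03 and 4.55 against 279, 313 and 271. All 3 receptors were at or below the level of resting Tconvs in iTregs, where the means were 16.5, 9.79 and 7.22.

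*Nrp1*, which encodes neuropilin-1 and serves as a surface marker of thymic Tregs, had 278, 328 and 354 normalized counts in iTregs and 4154, 3602 and 4137 in tTregs, 12.4-fold less (log2 -3.63 ± 0.12 SE, limma, adjusted p = 1.58e-07). The 3 iTreg libraries were below the resting Tconv mean of 653. *Nt5e* encodes CD73, which forms adenosine from AMP. It had 880, 854 and 988 in iTregs and 7474, 5737 and 6402 in tTregs (log2 -2.84 ± 0.12 SE, limma, adjusted p = 5e-07), with resting Tconvs at 830 ± 31.9. Other receptors lower in iTregs included *Cd83* (-4.96), *Tigit* (-4.82), which binds ligands on dendritic cells, *Cd86* (-3.64), *Pdcd1* (-3.31), which encodes PD-1, and *Havcr2* (-2.16), which encodes TIM-3. *Tigit* stood at 50.6 ± 11.1 in iTregs and 1442 ± 209 in tTregs, and *Pdcd1* at 227 ± 41 and 2257 ± 425, with resting Tconvs between the groups in both, at 293 and 555.

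A second set of surface proteins was lower in iTregs yet stayed well above resting Tconvs. *Lrrc32*, which encodes GARP, the docking protein for latent TGF-β, had 1381, 1718 and 1316 normalized counts in iTregs and 5596, 5715 and 7271 in tTregs (log2 -2.07), against 7.4 ± 3.39 in resting Tconvs. *Entpd1*, which encodes CD39, the enzyme upstream of CD73, had 169, 202 and 196 against 435, 453 and 372 (log2 -1.15), and Tconvs stood at 44.2 ± 8.54. *Itgae*, the αE integrin chain, was at 142 ± 16.1 and 231 ± 52.3 (log2 -0.68 ± 0.19 SE, limma, adjusted p = 0.0114), with Tconvs at 7.5 ± 1.19. *Tnfrsf18*, which encodes GITR, stood at 6462, 6145 and 7743 against 11459, 8533 and 9113 (log2 -0.51 ± 0.14 SE, limma, adjusted p = 0.011). That call was lost without the first or second iTreg library or the first tTreg library, at -0.48, -0.44 and -0.39, and 27.2% of its exonic length overlaps an antisense gene. Resting Tconvs held *Tnfrsf18* at 1172 ± 85.2, and activated Tconvs at 5166 ± 355, nearer to iTregs. *Lrrc32*, *Entpd1* and *Itgae* had means of 90.9, 24.9 and 2.48 in activated Tconvs. CD39 and CD73, which act in sequence, thus differed in their standing beside resting Tconvs. In iTregs the first was above them and the second at their level.

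Among all 59 Treg genes that were lower in iTregs, 32 had an iTreg mean at or below that of resting Tconvs, and 27 had one above it, 20 of them by more than 2 times. Of the 41 of these genes that tTregs held at more than 2 times the Tconv mean, 14 were at or below the Tconv mean in iTregs. These are means set side by side and were not tested.

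The promoter of *Itgb8* is shown because it was the Treg gene with the lowest iTreg level relative to tTregs among those with a promoter window, and that of *Gzma*, described below, because it had the largest rise. Capitals mark CpG, the dinucleotide at which mouse DNA is methylated. No methylation was measured in these libraries. Both stretches are the 120 bases before the start on the minus strand of GRCm38.p6, at chr12:119238277-119238396 and chr13:113100982-113101101. The whole windows held 13 and 5 CpG, beside a median of 21 over the genes tested and 7 over all genes with a window.
*Itgb8*: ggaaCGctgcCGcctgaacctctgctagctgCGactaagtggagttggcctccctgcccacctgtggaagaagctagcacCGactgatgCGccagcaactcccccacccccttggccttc
*Gzma*: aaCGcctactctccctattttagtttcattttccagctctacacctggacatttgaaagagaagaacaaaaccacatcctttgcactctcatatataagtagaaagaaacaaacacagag

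Surface proteins that iTregs shared with tTregs were led by *Izumo1r*, *Icos* and *Tnfrsf4*. *Izumo1r*, which encodes folate receptor 4, had 5873, 6048 and 6488 normalized counts in iTregs and 9017, 8589 and 8306 in tTregs (log2 -0.49), against 526 ± 11.6 in resting Tconvs. *Icos*, a costimulatory receptor, had 5442, 5034 and 6258 against 4868, 4278 and 3747 (log2 0.38), and *Tnfrsf4*, which encodes OX40, had 3556, 3897 and 5058 against 6452, 5345 and 5173 (log2 -0.45). *Ctla4*, the receptor that takes B7 ligands from dendritic cells, had 1913, 1979 and 2539 against 3291, 2677 and 2722 (log2 -0.44, interval -0.76 to -0.12). Of these genes, 3 lay close to the bound of 0.5. Without the third iTreg library *Izumo1r*, *Tnfrsf4* and *Ctla4* were called lower (-0.53, -0.60 and -0.57), without the third tTreg library *Izumo1r* and *Tnfrsf4* were (-0.52 and -0.51), and all 3 were called under scaling to equal totals (-0.81, -0.76 and -0.75). *Cd200* (0.15) and *Cd5* (-0.37) completed the shared set. Of the 11 Treg genes within 2-fold, 6 exceeded the resting Tconv mean by more than 2 times in iTregs. Activated Tconvs also held much *Icos* (4087 ± 340) and *Tnfrsf4* (3892 ± 364), beside iTreg means of 5578 and 4170. They held less *Izumo1r* (2105 ± 107) and *Ctla4* (701 ± 30.7) than iTregs did.

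Of the surface proteins, 11 were higher in iTregs. *Sema4a*, a semaphorin, had 749, 719 and 914 normalized counts in iTregs and 23.6, 25.9 and 21.6 in tTregs, 32.1-fold more (log2 5.00 ± 0.15 SE, limma, adjusted p = 1.32e-07). *Ly6a*, which encodes Sca-1, had 15113, 15799 and 16822 against 1176, 940 and 1013. *Lag3*, an inhibitory receptor for MHC class II, had 586, 610 and 641 against 17.2, 64.9 and 87.7 (log2 3.69 ± 0.51 SE, limma, adjusted p = 0.000298). In all 3 genes the lowest iTreg library exceeded the highest tTreg library several times over, and resting Tconvs were at 242, 1870 and 45.6. *Ccr8*, a chemokine receptor of tissue and tumor Tregs, had 1020, 1056 and 1058 against 84.4, 83 and 79.7 (log2 3.65), and neither resting Tconvs (3.06) nor activated Tconvs (55.7) approached the iTreg level. *Cd44*, a marker for which the starting T cells were sorted low, was higher by 1.76. *Il2ra*, which encodes the IL-2 receptor α chain CD25, had 9978, 11697 and 13005 against 7315, 6550 and 6390 (log2 0.77 ± 0.12 SE, limma, adjusted p = 0.000553). With quantile normalization or equal totals that difference was 0.35 or 0.45 and not called.

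**Figure D2:**
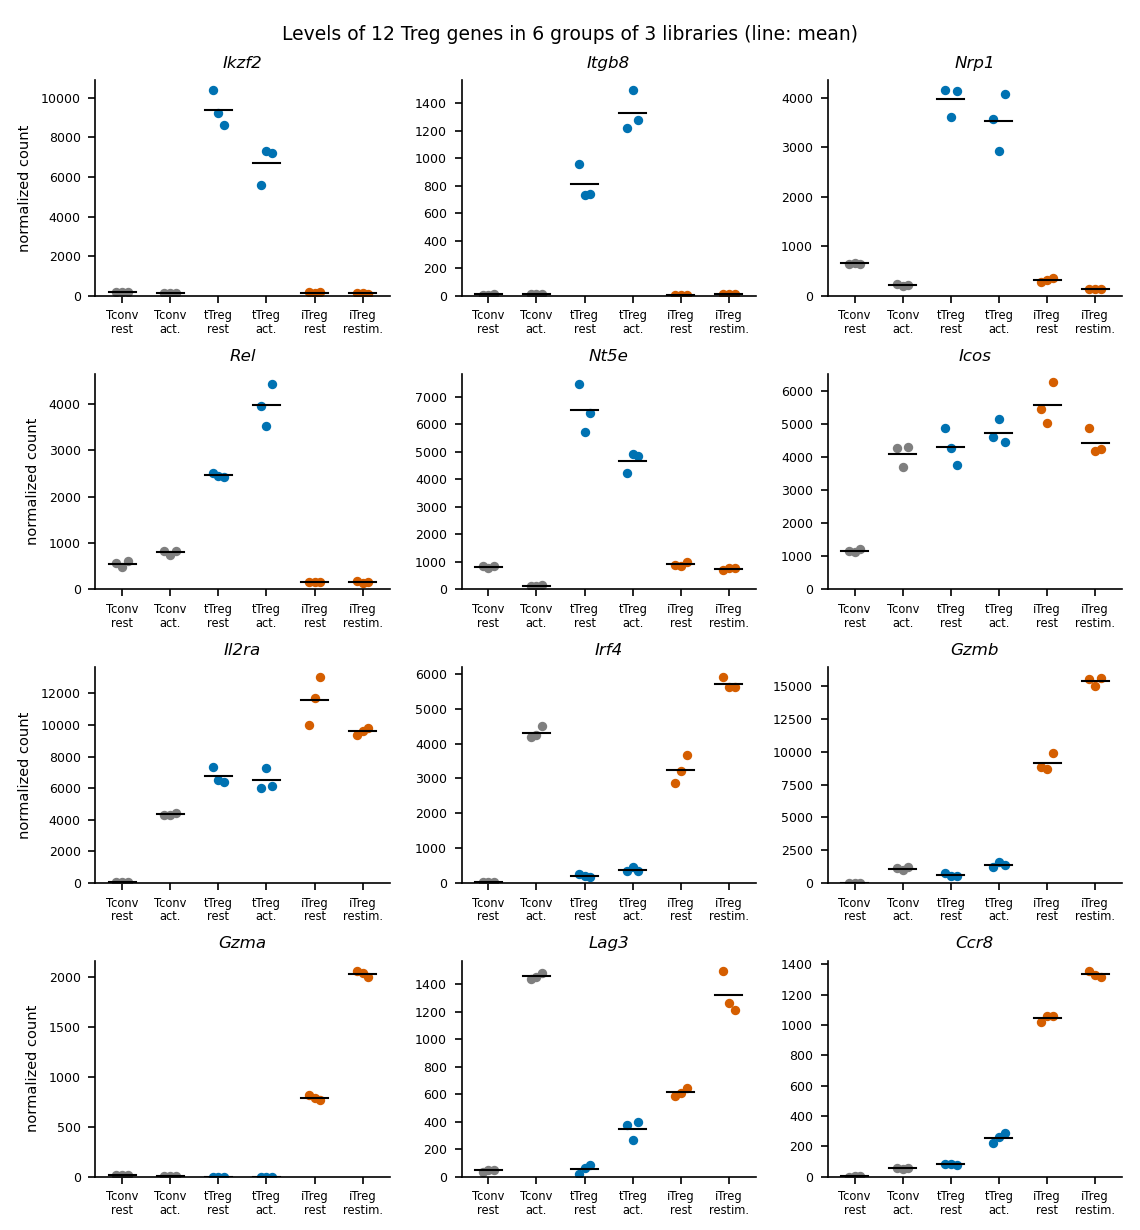
Normalized counts (vertical axes, from 0) of 12 Treg genes in resting and activated Tconvs (grey), resting and activated tTregs (blue) and resting and restimulated iTregs (orange), with 3 libraries as points and their mean as a line. *Ikzf2*, *Itgb8*, *Nrp1*, *Rel* and *Nt5e* were highest in the tTreg groups, and *Gzma*, *Gzmb* and *Ccr8* were highest in both iTreg groups.

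Mediators of suppression were the Treg list in which more genes were higher than lower in iTregs. Among the higher ones, *Gzma* and *Vegfa* passed the filter through iTregs alone. *Gzmb*, the granzyme with which Tregs can kill target cells, had 8813, 8693 and 9899 normalized counts in iTregs and 791, 572 and 575 in tTregs, 14.3-fold more (log2 3.83 ± 0.14 SE, limma, adjusted p = 2.89e-07). *Gzma* had 813, 784 and 766 in iTregs and no read in any tTreg library, which puts it at least 235.5-fold higher when 3 reads per tTreg library are taken as the floor. *Prf1*, the perforin through which granzymes enter a target cell, went the other way, with 14.8, 11.1 and 8.35 in iTregs and 73.5, 62.3 and 58.1 in tTregs (log2 -2.43). So granzymes were higher and perforin was lower in the same libraries.

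*Vegfa*, the vascular growth factor, had 29.5, 26.2 and 28.1 normalized counts in iTregs and none in tTregs, at least 8.356-fold more. *Anxa1*, an anti-inflammatory annexin, had 43.2, 42.4 and 52.4 against 0, 1.3 and 4.56, a ratio of 25.67 (10.76 to 80.19). *Lgals1*, the galectin that Tregs secrete, was at 19335 ± 1431 and 1768 ± 122 (log2 3.45). *Il10*, the inhibitory cytokine, was low in both groups, with 34.8, 28.2 and 34.9 against 10.9, 2.6 and 10.2 (log2 2.10 ± 0.47 SE, limma, adjusted p = 0.00392). *Ebi3*, a chain of IL-35, passed narrowly with 121, 121 and 137 against 75.3, 79.2 and 114 (log2 0.52 ± 0.19 SE, limma, adjusted p = 0.0393). The call of *Ebi3* was lost when any library but the third tTreg library was left out, at 0.41 to 0.54, and *Il12a*, which encodes the second chain of IL-35, did not reach the filter.

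Lower in iTregs were *Fgl2* (-3.04), a fibrinogen-like protein that Tregs secrete, *Swap70* (-2.95), *Fam129a* (-2.74), *Adora2a* (-2.22), the main adenosine receptor of T cells, *Ecm1* (-1.33), *Furin* (-0.69), the protease that matures TGF-β, and *Tgfb1* itself. *Tgfb1* had 112, 94.8 and 76.6 normalized counts in iTregs and 136, 149 and 138 in tTregs (log2 -0.59 ± 0.17 SE, limma, adjusted p = 0.0147), a call that was lost without the third iTreg library (-0.45). *S100a4* was within 2-fold (-0.19), with 51.7% of its exonic length shared with another gene. Of the 38 Treg genes that were higher in iTregs, 34 also exceeded the mean of activated tTregs and 30 that of activated Tconvs. In 26 the iTreg mean exceeded those of activated tTregs, activated Tconvs and resting Tconvs, with restimulated iTregs left out of this count. Being listed as a Treg gene did not mean a higher level in tTregs than in Tconvs. Means of resting tTregs lay below those of resting Tconvs in *Id2*, *Sema4a*, *Ly6a*, *Anxa1* and *Gzma*. They lay above them in *Irf4*, *Ccr8*, *Gzmb* and *Il2ra*.

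A further 21 lists covered other functions of T cells, and many genes belong to more than 1 list. The lists ranged from a median of 6.32 for mitosis to -0.96 for adenosine and ATP handling, against 0.03 over all genes tested.

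**Figure D3:**
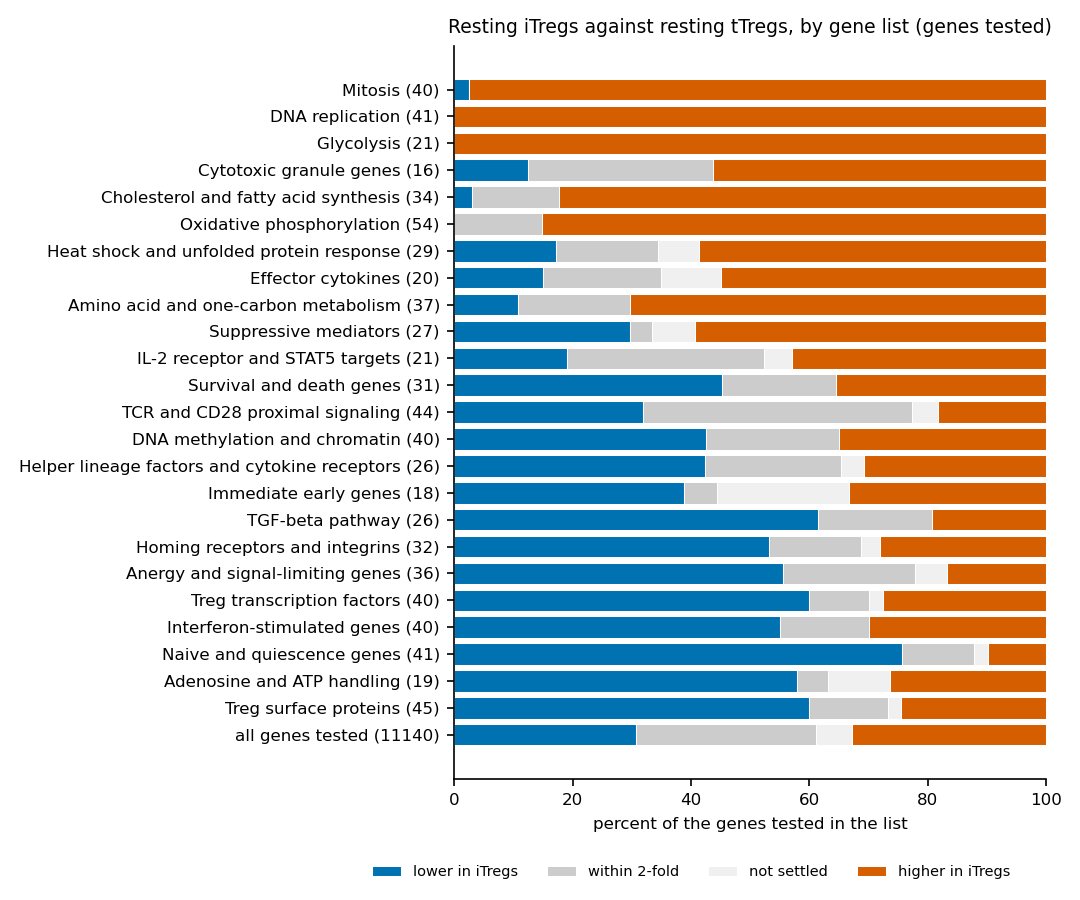
Percent of the genes tested in each list (number in brackets) that were lower in iTregs (blue), within 2-fold (grey), not settled (light grey) or higher (orange), ordered by the list median, with all 11140 genes at the bottom. All 21 glycolysis genes and 41 DNA replication genes were higher in iTregs, and 31 of 41 naive and quiescence genes were lower.

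**Figure D4:**
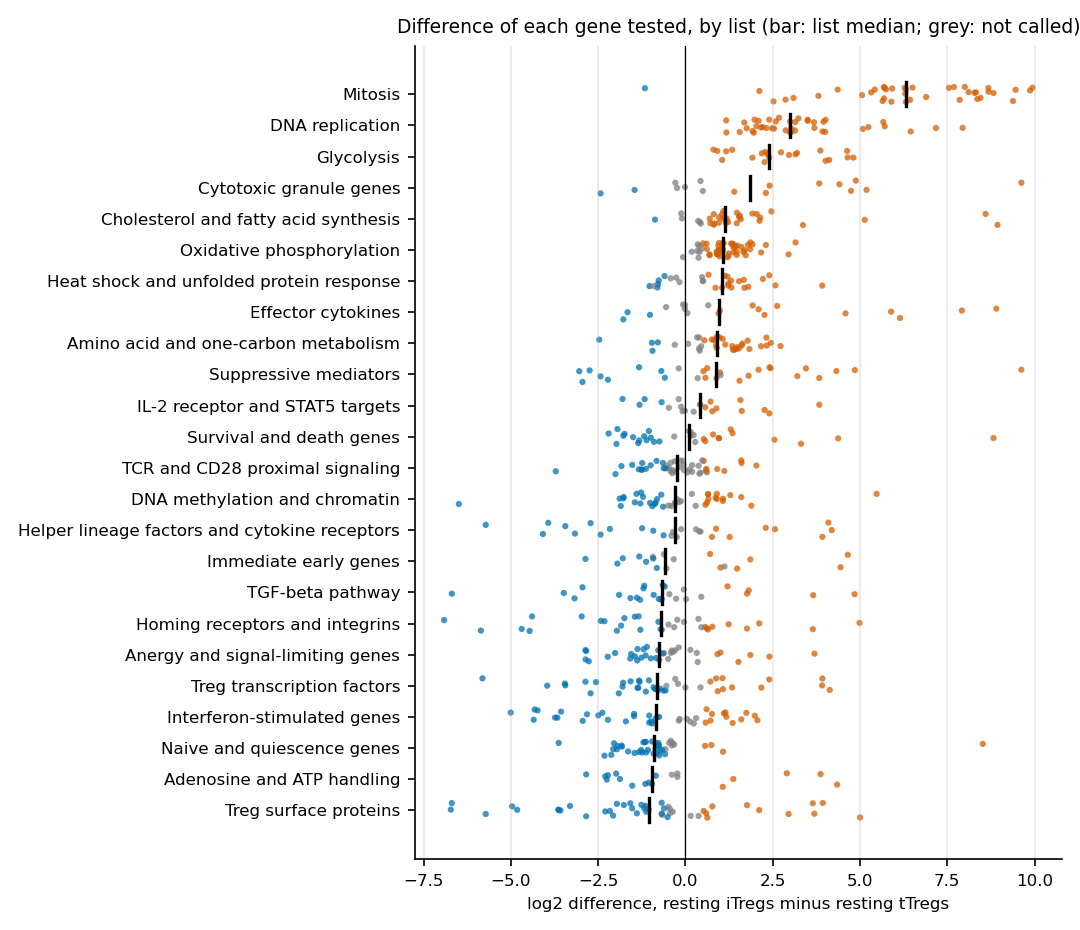
Log2 difference of each gene tested (horizontal axis, resting iTregs minus resting tTregs), one row per list, with the list median as a black bar, called genes in blue (lower) or orange (higher) and genes not called in grey. The Treg lists spread to both sides of 0, whereas DNA replication and glycolysis lay wholly to the right.

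Genes that copy DNA were higher in iTregs without exception. All 41 DNA replication genes were called, with a median of 3.00. *Cdc6*, which loads the replicative helicase at origins, had 1313, 1283 and 1447 normalized counts in iTregs and 8.16, 1.3 and 6.83 in tTregs (log2 7.94 ± 0.47 SE, limma, adjusted p = 2.96e-06). *Mcm10*, which activates that helicase, had 724, 761 and 726 against 4.54, 2.6 and 5.7. In *Mcm5*, a subunit of the helicase, the values were 6688, 6729 and 7318 against 525, 415 and 403. Resting Tconvs stood with tTregs, at 7.28, 3.07 and 450. Activated Tconvs lay between, at 423, 199 and 4929.

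Of the 33 replication genes with a promoter window, 11 (33.3%) held TTTCCCGC or TTTGGCGC on either strand, beside 324 of the 8864 tested genes with a window (3.66%) and 486 of all 27025 (1.8%). The motifs differ only in the CC or GG at their center, and overlapping matches were counted. The sequences of 5 of the 11 are shown, because these genes moved together in iTregs. Each is cut around the motif, which is in capitals, and lies before the annotated start (RefSeq, GRCm38.p6). They are *Cdc6* on the plus strand (chr11:98907977-98908056, motif 138 bases before the start), *Mcm5* on the plus strand (chr8:75109324-75109403, 149 bases), *Gins3* on the plus strand (chr8:95633482-95633558, 41 bases), *Mcm7* on the minus strand (chr5:138172005-138172084, 165 bases) and *Mcm6* on the minus strand (chr1:128359709-128359851), with motifs 110 and 47 bases before the start.
*Cdc6*: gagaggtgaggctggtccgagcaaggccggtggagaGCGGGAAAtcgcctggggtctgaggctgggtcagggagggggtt
*Mcm5*: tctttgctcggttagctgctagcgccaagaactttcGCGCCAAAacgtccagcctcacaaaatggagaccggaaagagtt
*Gins3*: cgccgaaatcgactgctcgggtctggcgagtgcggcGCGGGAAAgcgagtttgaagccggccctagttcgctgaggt
*Mcm7*: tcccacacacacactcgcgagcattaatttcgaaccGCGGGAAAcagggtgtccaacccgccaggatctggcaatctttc
*Mcm6*: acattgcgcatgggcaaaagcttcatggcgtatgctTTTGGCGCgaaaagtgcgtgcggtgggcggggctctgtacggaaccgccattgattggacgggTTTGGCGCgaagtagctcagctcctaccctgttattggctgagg

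*Cdc6*, *Gins3* and *Mcm7* carry the reverse complement of the first motif, *Mcm5* that of the second, and *Mcm6* carries the second motif itself at both places. *Mcm7* has another annotated start, whose window held no motif. The 4 genes other than *Cdc6* were higher by 3.95 (*Mcm5*), 1.96 (*Gins3*), 2.54 (*Mcm7*) and 2.17 (*Mcm6*). Of the 32 mitosis genes with a window, 1 held a motif (3.12%), although both lists were higher in iTregs. None of the 33 surface proteins and none of the 22 mediators with a window held one.

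Mitosis genes had the largest median of all lists, 6.32, and 39 of 40 were higher. *Hmmr*, a spindle protein, had 989, 907 and 1060 normalized counts in iTregs and no read in tTregs, at least 294.6-fold more. *Ccna2*, which encodes cyclin A2, differed by 9.87 on the log2 scale, *Ube2c*, which the mitotic ubiquitin ligase uses to degrade cyclins, by 9.46, and *Mki67*, the proliferation marker Ki-67, by 5.06. The exception was *Smc4*, a condensin subunit, with 4672, 4332 and 3510 against 8764, 9302 and 9746 (log2 -1.16). Mitosis genes took 0.834% to 0.858% of the summed normalized counts of an iTreg library and 0.127% to 0.139% of a tTreg library. In activated Tconvs they took 0.105% on average, while DNA replication genes there took 0.589%.

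Quiescence genes differed in the opposite direction. Of 41 naive and quiescence genes, 31 were lower in iTregs and 4 higher, with a median of -0.91. *Klf3*, a repressor of the Krüppel-like family, had 135, 117 and 144 normalized counts in iTregs and 1748, 1700 and 1483 in tTregs (log2 -3.63), and *S1pr1*, the receptor with which T cells leave lymph nodes, had 914, 1065 and 918 against 4878, 4971 and 4591 (log2 -2.32). *Klf2*, which drives *S1pr1*, was lower by 2.12 and *Cdkn1b*, which encodes the cell cycle inhibitor p27, by 2.04. *Tcf7* and *Lef1*, factors of naive T cells, were lower by 0.78 and 0.72, both groups being far under the Tconv means of 16211 and 9301. The largest rise was in *Igfbp4*, which binds insulin-like growth factors, with 9546, 10547 and 8940 against 14.5, 32.4 and 34.2 (log2 8.52). Activated Tconvs had 6454 ± 475 of it. *Satb1*, a chromatin organizer, was higher by 1.08.

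All 21 glycolysis genes were higher in iTregs, with a median of 2.40. *Tpi1*, the triose phosphate isomerase, had 28379, 26274 and 31246 normalized counts in iTregs and 1126, 991 and 943 in tTregs (log2 4.81 ± 0.11 SE, limma, adjusted p = 5.24e-08). *Hk2*, the hexokinase of growing cells, had 1539, 1329 and 1700 against 49, 76.6 and 55.8, and *Ldha*, which makes lactate, 61845 ± 1573 against 6764 ± 653. The list took 3.52% to 3.77% of an iTreg library and 0.570% to 0.623% of a tTreg library. Resting Tconvs, at 0.582%, lay within the range of tTregs, and neither activated Tconvs (1.04%) nor activated tTregs (0.832%) approached the share in iTregs.

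**Figure D5:**
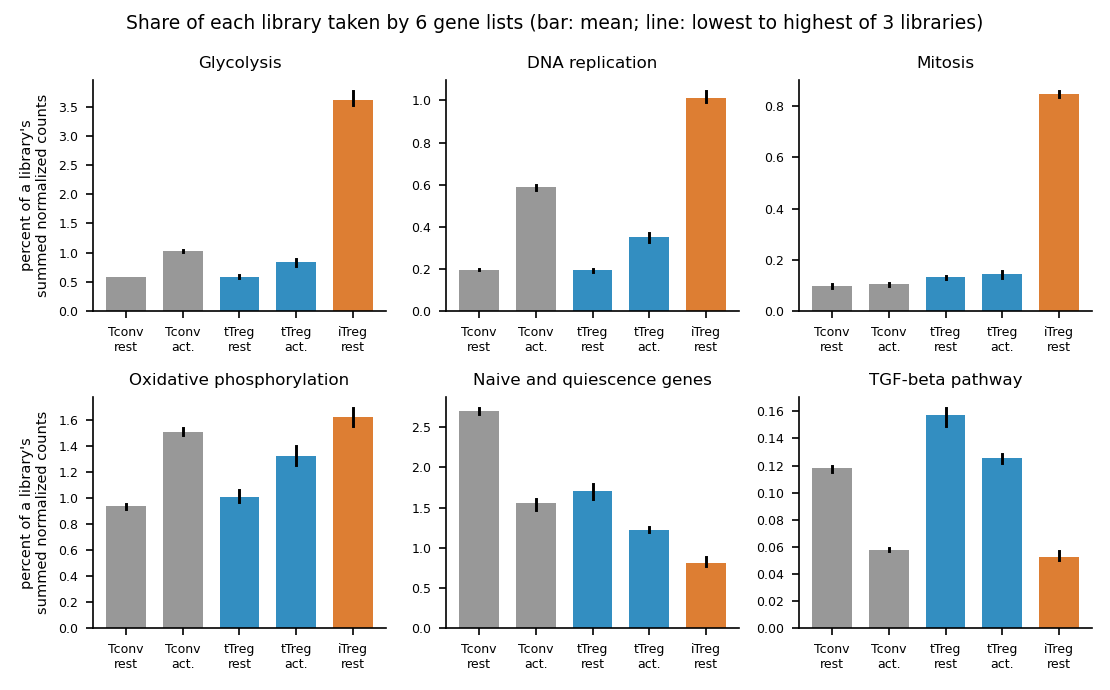
Percent of a library's summed normalized counts taken by 6 gene lists (vertical axes, from 0), as the mean of 3 libraries (bar) with the lowest and highest library (line), in resting and activated Tconvs (grey), resting and activated tTregs (blue) and resting iTregs (orange). Glycolysis, DNA replication and mitosis were highest in iTregs, and naive and quiescence genes were lowest there.

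Oxidative phosphorylation genes were higher to a smaller degree, 46 of 54 with a median of 1.07 and none lower, and they took 1.55% to 1.69% of an iTreg library against 0.968% to 1.06%. The genes with the largest differences rested on uneven tTreg libraries. *Cox5a*, a subunit of complex IV, had 4331, 3997 and 3169 normalized counts in iTregs but 75.3, 854 and 1191 in tTregs, and *Uqcrfs1*, the iron-sulfur subunit of complex III, had 4123, 3924 and 3504 against 80.7, 815 and 1828. Without the first tTreg library, which was the lowest in both, the differences of 3.15 and 2.95 became 1.91 and 1.65. *Uqcrfs1* also lost its call without any 1 iTreg library. *Cycs*, which encodes cytochrome c, had even libraries and was higher by 2.17. Mitochondrial transcripts themselves took 2.18% of iTreg and 1.92% of tTreg libraries on average.

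Genes of lipid and amino acid synthesis were also mostly higher. Of 34 cholesterol and fatty acid genes, 28 were higher and 1 lower, with a median of 1.13. *Scd1* and *Fads2*, desaturases of fatty acids, had no read in tTregs and 490 ± 26.4 and 388 ± 34.7 normalized counts in iTregs, at least 146.5-fold and 115.9-fold more. *Sqle*, an enzyme of cholesterol synthesis, was higher by 2.04. *Elovl6*, which elongates fatty acids, was lower (-0.87). Of 37 amino acid and one-carbon genes, 26 were higher and 4 lower, with a median of 0.90. *Shmt1*, which feeds serine into one-carbon metabolism, stood at 836 ± 55.5 in iTregs and 126 ± 16.7 in tTregs (log2 2.72), and *Slc43a1*, a carrier of branched amino acids, was lower by 2.47.

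Chaperones and genes of the unfolded protein response followed, with 17 of 29 higher, 5 lower and a median of 1.05. *Sdf2l1*, a partner of chaperones in the endoplasmic reticulum, had 712, 1234 and 444 normalized counts in iTregs and 22.7, 55.8 and 83.2 in tTregs (log2 3.92). *Ddit3*, which encodes the stress factor CHOP, was lower (-0.80). Immediate early genes, which respond to handling as well as to receptor signals, were divided, with 7 of 18 lower, 6 higher and 4 not settled. *Atf3* stood at 195 ± 21.2 and 8.88 ± 4.89, and *Zfp36*, which destabilizes cytokine mRNA, at 132 ± 13.4 and 512 ± 59.8.

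Genes of the IL-2 pathway went different ways. Of 21 genes, 4 were lower in iTregs, 9 were higher and 7 were within 2-fold, with a median of 0.41. The shares called (61.9%) and within 2-fold (33.3%) were near those of all genes tested (63.5% and 30.4%). They therefore do not set this list apart. Both STAT5 genes, *Jak1* (-1.17) and *Il2rb* (-0.68), the receptor β chain, were lower, whereas *Il2ra* and *Jak3* (1.57) were higher and the common chain *Il2rg* (0.43) was within 2-fold, though called at 0.58 and 0.55 without the first iTreg and the first tTreg library. Among targets of STAT5, *Cish* was level, at 5400, 5643 and 5545 normalized counts in iTregs and 6032, 5677 and 5859 in tTregs, against 156 ± 15.9 in resting Tconvs. *Bcl2*, the survival protein, was also shared, at 5778 ± 394 and 4902 ± 173. Other members of the list were higher in iTregs. *Gzmb* (3.83) and *Xbp1* (2.40, with uneven tTreg libraries) were its largest rises without overlap between the groups.

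Most genes of the TGF-β pathway were lower in iTregs, whose culture before the rest had held TGF-β. Of 26 genes tested, 16 were lower, 5 higher and 5 within 2-fold, with a median of -0.68. Both receptor chains were lower, *Tgfbr1* by 0.77 and *Tgfbr2* at 379 ± 33.2 against 859 ± 58.9 normalized counts, as were *Smad3* (-0.65) and *Smad4* (-1.20), which carry the signal, while *Smad2* was within 2-fold (-0.27). Inhibitors of the pathway did not go one way, with *Skil*, *Smad7* and *Ldlrad4* lower and *Pmepa1* higher. *Skil* had 514, 469 and 575 normalized counts against 4006, 4664 and 3428 (log2 -2.95). *Smad7* had 83.3, 71.6 and 76.6 against 203, 231 and 264 (log2 -1.57). *Ldlrad4*, another inhibitor, was lower by 3.48, with 52.1% of its exonic length shared with other genes. Among those higher were *Eng*, the co-receptor endoglin, with 98, 101 and 101 against 1.81, 1.3 and 5.7 (ratio 34.41, interval 17.26 to 80.38), *Tgfbr3* (1.81), a co-receptor, and *Pmepa1* (1.21), an inhibitor.

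Receptors that guide T cells to tissues were 17 of 32 lower and 9 higher, with a median of -0.69. *Ccr6*, the receptor for CCL20, had 0, 2.02 and 0.759 normalized counts in iTregs and 236, 223 and 173 in tTregs, a ratio of 230.5 (78.5 to 1121). *Ccr9*, which guides cells to the small intestine, had 0, 1.01 and 2.28 against 124, 92.1 and 109, a ratio of 90.01 (34.79 to 332.5). Both were at the limit of detection in iTregs. *Itga4*, the α4 integrin chain, had 120, 128 and 146 against 3437, 2609 and 2747 (log2 -4.46). Higher in iTregs beside *Ccr8* were *Cx3cr1*, the fractalkine receptor (ratio 38.56, 20.12 to 84.93), *Ccr4* (2.11) and *Cxcr3* (1.24), a receptor of Th1 cells.

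Factors and receptors of helper lineages were divided, with 11 of 26 lower, 8 higher and 6 within 2-fold. Those of the Th1 lineage did not go one way. *Il12rb2*, a chain of the IL-12 receptor, had 683, 823 and 910 normalized counts in iTregs and 44.5, 59.7 and 29.6 in tTregs (log2 4.19), and *Tbx21*, which encodes T-bet, had 83.3, 98.9 and 54.6 against 6.35, 1.3 and 4.56 (log2 4.09). Of the exonic length of *Il12rb2*, 40.0% overlaps a gene on the other strand. *Stat4*, which carries the IL-12 signal, was lower (-2.43), as was *Ifngr1*, the ligand-binding chain of the interferon-γ receptor, at 3129 ± 55.4 against 28077 ± 1533. Receptors for IL-9 and IL-18 were lower by 4.08 (*Il9r*) and 3.93 (*Il18r1*).

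Of 36 effector cytokines, 16 did not reach the filter, among them *Il2*, *Ifng*, *Il4* and *Il17a*. Of the 20 tested, 11 were higher in iTregs and 3 lower, with a median of 0.97. *Il24* had 580, 600 and 673 normalized counts in iTregs and a single read over the 3 tTreg libraries, and *Il21*, a cytokine of follicular T cells, had 219, 255 and 250 and no read in tTregs, at least 72.26-fold more. *Lif*, a cytokine of the IL-6 family, was at 1223 ± 96.5 and 16.4 ± 2.37 (log2 6.15). *Tnf* was level, at 485 ± 21.4 and 509 ± 31.2. *Tnfsf10*, which encodes TRAIL (-1.78), *Csf1* (-1.66) and *Il16* (-1.01) were lower.

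Genes next to the T cell receptor were the list most often shared, with 20 of 44 within 2-fold (45.5%), 14 lower and 8 higher. The shared genes included *Vav1* (-0.05), an exchange factor, *Grap2* (-0.04), an adaptor, and *Malt1* (0.11), which links the receptor to NF-κB. *Txk*, a Tec family kinase, had 139, 156 and 196 normalized counts in iTregs and 2453, 2111 and 1895 in tTregs (log2 -3.71), while *Themis*, a regulator of receptor signals, had 2085, 2234 and 2874 against 659, 590 and 501 (log2 2.03). *Lat*, the adaptor of the receptor, was higher, at 7531 ± 226 against 2486 ± 172. Scaled to equal totals, 22 of these genes were lower and 5 higher.

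Genes that limit the signal were lower in 20 of 36 cases and higher in 6, with a median of -0.76. *Tnfaip3*, which encodes the NF-κB inhibitor A20, had 132, 176 and 183 normalized counts in iTregs and 1216, 1326 and 1018 in tTregs (log2 -2.86). The ubiquitin ligases *Cblb* (-1.10) and *Itch* (-1.38) and the kinase *Dgka* (-1.20), all tied to anergy, were lower. *Ndfip1*, an activator of Itch, was higher, with 7967, 7698 and 6748 against 273, 334 and 2073 (log2 3.70 ± 0.67 SE, limma, adjusted p = 0.00129), again with the third tTreg library apart from the other two. Without that library the difference was 4.62.

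Of 19 genes that handle adenosine and ATP, 11 were lower and 5 higher, with a median of -0.96. Beside CD39, CD73 and *Adora2a*, these included *Cd38* (-2.30), which degrades NAD, *P2rx7* (-1.52), an ATP-gated channel, and *Adk* (-1.88), which removes adenosine. *Ada*, which also removes adenosine, was higher (1.37). The receptors *Adora2b* and *Adora3* were higher, at 82.1 ± 6.14 against 3.37 ± 2.05 and 40 ± 5.65 against 1.85 ± 0.729. So of the 3 adenosine receptors tested, *Adora2a* was lower in iTregs and the other two were higher.

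Interferon-stimulated genes did not move as one. Of 40 tested, 22 were lower in iTregs, 12 higher and 6 within 2-fold, with a median of -0.83. *Oas1a*, a sensor of double-stranded RNA, had 12.7, 8.07 and 9.86 normalized counts in iTregs and 240, 253 and 183 in tTregs (log2 -4.35), and *Ifit1* had 10.5, 9.08 and 7.59 against 172, 125 and 107 (log2 -3.73). *Irf7*, which amplifies the type I interferon response, was lower by 3.67. *Isg20* (2.06), *Oas3* (1.99) and *Psmb9* (1.75), a subunit of the immunoproteasome, were higher. Outside the list, *Ifi208* and *Ifi213* of the related p200 family were among the 5 largest falls over all genes, with ratios of 352.7 (150.8 to 1088) and 253.4 (86.33 to 1232). Resting Tconvs had more of both than tTregs, at 2833 and 1555 against 534 and 231.

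Of 40 regulators of DNA methylation and chromatin, 17 were lower, 14 higher and 9 within 2-fold. *Uhrf1* and *Dnmt1*, which copy methylation at replication, had 4084, 4173 and 4582 against 89.8, 104 and 92.3 (log2 5.47) and 3944, 4044 and 4300 against 1138, 1276 and 931 (log2 1.89). *Dnmt3b*, which adds methylation anew, was higher by 0.62, a call lost without any library but the third iTreg library (0.43 to 0.73), and *Dnmt3a*, of the same role, lay at -0.49 and was called in 4 of the 6 fits that left out a library, at -0.52 or -0.53. *Tet1*, *Tet2* and *Tet3*, which oxidize methylated cytosine, were all lower, *Tet1* by 0.95, *Tet3* by 1.85, and *Tet2* at 472 ± 37.4 against 1249 ± 112. *Hdac9*, a class II deacetylase, had no read in iTregs and 90.7, 92.1 and 84.3 normalized counts in tTregs, at least 31.56-fold less, and *Kdm6a*, an X-linked histone demethylase, was lower by 1.89. *Ezh2* was within 2-fold (0.18).

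Genes of survival and death showed no common direction, 14 of 31 lower and 11 higher with a median of 0.10. *Bcl2l11*, which encodes the death protein BIM (-1.95), and *Mcl1* (-1.50), which opposes it, were both lower, and so were *Bmf* (-2.20) and *Fas* (-1.11). *Cdkn1a*, which encodes the cell cycle inhibitor p21, had 2991, 2898 and 2733 against 142, 127 and 144 (log2 4.38). *Bcl2a1b* (-1.97) is one of several near-identical copies whose reads the counting could divide. Of 16 cytotoxic granule genes, 9 were higher and 2 lower, and 4 of the 16 had no read in 1 of the groups. Beside the granzymes, *Nkg7*, a granule protein, had 1136, 1093 and 1226 against 63.5, 55.8 and 42.1 (log2 4.41), and *Klrk1*, which encodes NKG2D, had no read in tTregs and 27.4, 29.3 and 55.4 in iTregs, at least 11.17-fold more.

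Outside the lists, the largest falls over all genes included *Abcb1a*, a drug efflux pump, with 0, 4.04 and 4.55 normalized counts in iTregs and 624, 724 and 517 in tTregs (ratio 201.3, 109.2 to 420.6), and *Fam160a1*, with no read in iTregs and 160, 144 and 125 in tTregs, at least 50.68-fold less. *Pde2a*, a cyclic nucleotide phosphodiesterase, was lower at 0, 59.5 and 0 against 1470, 1006 and 1109, with 64.3% of its exonic length shared with an overlapping gene. Its difference of -8.23 was -10.2 without the second iTreg library. The 5 largest rises were the mitosis genes *Hmmr*, *Ccna2* and *Ube2c*, the granzyme gene *Gzma*, and *Akr1c18*, a steroid dehydrogenase that inactivates progesterone, with 4068, 4256 and 5969 in iTregs and 7.26, 3.89 and 6.83 in tTregs (log2 9.43 ± 0.24 SE, limma, adjusted p = 7.78e-08). Resting Tconvs were at 1.86 and activated Tconvs at 166.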

How the data were processed

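RNA of sorted cells was made into libraries with a modified SMART-seq2 protocol, which primes on poly(A), amplifies by PCR and keeps no strand. Per the labels and the methods, the authors trimmed reads with cutadapt 1.18, aligned them to mm10 with STAR 2.5.3, counted them with RSEM 1.3.0 on GENCODE genes and normalized with DESeq2 1.26. The deposited values are a signal of normalized counts, that is, gene counts divided by 1 size factor per library, from which whole reads were recovered. Columns of the authors' own comparisons were not used.

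Log2 values with a pseudocount of 1 were fitted with limma 3.58.1 (trend) in R 4.3.3 on the 6 libraries, with Benjamini-Hochberg adjustment. This scale understates the change of low genes. Against a group with no reads, a fold is a lower bound at a floor of 3 reads per library (2.276 to 3.893 normalized counts). Ratios that rest on few reads carry a 95% exact counting interval, which covers counting error only. edgeR 4.0.16 and DESeq2 1.42.0 on the recovered reads, other scalings, pseudocounts, filters and samples were alternatives. On simulated counts (10968 genes in the fit, 200 set to change) limma called 50 of 67 genes changed 2-fold and 62 of 66 changed 4-fold. It called 9 of 67 changed 1.5-fold and made 10 false calls. Far more genes, 7076, were called in the data, so these shares do not carry over to it.

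The gene lists and the comparison were chosen with earlier results of these data known. The genes named by rule were, per Treg list, the 4 largest falls and rises without overlap and with at least 20 normalized counts in the higher group and the 3 most abundant within 2-fold, per other list the 2 largest falls and rises, over all genes tested the 5 largest falls and rises with at least 100 normalized counts (Gm and Rik genes and pseudogenes passed over), and 16 Treg genes always: *Foxp3*, *Ctla4*, *Il2ra*, *Ikzf2*, *Ikzf4*, *Nrp1*, *Tnfrsf18*, *Icos*, *Entpd1*, *Nt5e*, *Itgae*, *Lrrc32*, *Il10*, *Tgfb1*, *Ebi3* and *Gzmb*. Others were chosen after their values were seen. Positions are from GENCODE vM21 (GRCm38), matched for 21653 of 21950 symbols, and promoters from RefSeq GRCm38.p6. Reads of near-identical genes (*Bcl2a1*, *Ifi200*, *Oas* and *Ly6* families) and of overlapping genes may be divided wrongly. Beside those named above, exonic length is shared with another gene in *Il2rg* (30.5%), *Stat4* (26.7%), *Ebi3* (23.4%), *Ube2c* (22.8%), *Ccr9* (21.5%) and *Adora3* (20.9%). Library pairs of 1 group differed by more than sampling noise. Some genes of the lists are not reported here.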

Additional observations from a re-analysis of the deposited data

How the results depend on the processing

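No called difference of a gene named by rule changed sign under any of 22 alternatives. Of the list members outside that rule, *Ltb* did when 1 library was left out, from 0.65, not called, to -0.72, called, without the first tTreg library. The median over all genes moved from 0.03 to -0.08 with quantile normalization, -0.01 with TMM, -0.29 with equal totals, -0.02 with no filter and -0.05 with edgeR. With a log2 bound of 1 in place of 0.5, the genes differing between resting iTregs and resting tTregs numbered 4554 (2394 higher, 2160 lower) and 25 Treg genes were within 2-fold. With the adjusted p alone, 4 were. edgeR called 3371 higher and 3714 lower, DESeq2 3558 and 3477, and edgeR gave no interval for the within 2-fold class. With the replicate block, the genes differing numbered 6964 (3601 higher, 3363 lower). Libraries of the same number deviated together with r of -0.108, 0.0311 and -0.269, so the numbers gave no sign of pairing. For libraries of different number r lay between -0.209 and 0.297. A batch shared in another order was not tested. Leaving out 1 library gave 3431 to 3671 genes higher and 3280 to 3440 lower. A group of 2 left by this, and every p here, rests on the spread of few libraries.

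Of the list counts, those that moved by over 1.5 times did so under 5 alternatives. With the bound of 1, higher genes became 7 of the surface proteins, 5 of the IL-2 list, 5 of homing, 2 of naive, 4 of T cell receptor, 30 of oxidative phosphorylation, 17 of amino acid, 6 of chromatin and 6 of survival genes, and lower genes 10 of TGF-β, 19 of naive, 9 of T cell receptor, 0 of cholesterol, 1 of amino acid, 11 of chromatin and 1 of heat shock genes. Scaled to equal library totals, an alternative chosen after seeing the data, higher genes were 7 of the surface proteins (also with quantile normalization), 5 of homing, 2 of naive, 5 of T cell receptor, 9 of chromatin and 7 of survival genes, and 22 T cell receptor genes were lower. With a filter of 100 normalized counts, which tests fewer genes, higher genes were 2 of TGF-β, 5 of helper, 5 of cytokine, 7 of survival, 5 of cytotoxic and 3 of adenosine genes, and 1 cytotoxic gene was lower. With reads thinned to 1 depth, 3 TGF-β genes were higher. The other 1024 list counts stayed within 1.5 times. For genes named by rule, 31 values lost their call, 24 gained one and 2522 did neither. Differences near 0.5 are the ones this depth and number of libraries leave undecided.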
